A study of Oryza sativa with 6 samples.

Results

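Homeobox genes encode transcription factors that bind DNA through a homeodomain, and their expression was measured in rice (Oryza sativa) roots of wild-type (WT) plants and of the mutant line mads61-3 of OsMADS61, a MADS-box transcription factor gene. The genes were matched by name, ignoring case, in the deposited table of 36960 features. Any symbol made of HOX, WOX, OSH, KNOX, ROC, QHB, BEL or BELL was taken, with an optional number and an optional prefix Os. This found 51 genes, of which 48 were kept as homeobox genes. The other 3 carry look-alike names: bel is the bentazon resistance gene, which encodes a cytochrome P450, and Osh36 and Osh69 were named as senescence-associated genes. Their values are given apart, at the end. Of the 48 homeobox genes, 14 belong to HD-Zip class I, 12 to class II, 4 to class III and 1 to class IV, 9 are WOX genes, 7 are KNOX genes and 1 is listed as BEL1. No QHB symbol and no other ROC gene than ROC4 matched.

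The homeodomain families divide the work of plant development. HD-Zip proteins join the homeodomain to a leucine zipper and bind DNA as dimers. Class I is known for responses to water shortage and abscisic acid, class II for light and auxin responses, class III for vascular patterning under control of the microRNA miR166, and class IV for the epidermis. WOX proteins keep stem cells and start new organs, and WOX11 drives crown root growth in rice. KNOX proteins pair with BELL proteins. Some, though not all, KNOX proteins keep the shoot meristem undifferentiated and are known there to favour cytokinin synthesis and gibberellin breakdown.

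The study grew seedlings in hydroponic tanks with 2.5 mM nitrate, without a fungal partner, and sequenced root RNA of 3 WT and 3 mads61-3 samples, to ask how OsMADS61 acts on nitrate transport. The mutant is represented by a single line, the labels give no age and no kind of mutation, and several seedlings shared a tank. Nothing in the labels says that the samples of a group came from separate tanks, so p-values speak of the spread among these 6 libraries, part of which may be technical. Library totals ran from 24145708 to 34179150 counts. Levels are given as CPM, read counts scaled to library size, for 1 gene across libraries, and as the deposited FPKM, scaled also to length, between genes.

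One library went against its label in the targeted gene. OsMADS61 (Os04g0461300, chromosome 4) had 12600 and 14468 counts in WT replicates 1 and 2, and 67 in the library labelled WT replicate 3, beside 214, 73 and 126 in the mutants. Its log2 fold change was -6.40 with all libraries (edgeR, adjusted p = 0.129) and became -6.99 when the library labelled WT replicate 3 was dropped (adjusted p = 0.00746). Many fold changes are therefore given below with and without that library. Others are given with all libraries alone, although some of these also moved by over 1.5 times when it was left out. Examples are Oshox7 (-0.13 to -0.39), HOX10 (-0.17 to -0.33) and qSH1 (0.09 to 0.30). Of 11 names on the root marker list 8 were matched, with a median log2 fold change of -0.01, and edgeR called 0 of them. Their summed level was 1740 to 3216 CPM across WT and 3083 to 7180 in mads61-3. It was mostly that of the silicon transporter genes LSI1 (log2 1.45) and LSI2 (log2 1.70). RCc3 (log2 -2.56), RCc2 (log2 -0.75), OsRTH1 (log2 -0.40) and OsSCR1 (log2 -0.16) had estimates on the lower side. CSLD1 (log2 0.30) and OsSHR1 (log2 0.14) were on the higher side. On dropping the library labelled WT replicate 3, LSI1 and LSI2 became 1.15 and 1.33. RCc3, RCc2, OsRTH1 and OsSCR1 became -0.86, -0.25, -0.55 and -0.30, and CSLD1 and OsSHR1 0.41 and -0.10. With all libraries, 2 root markers were higher and 1 lower with an unadjusted edgeR p under 0.05, beside 7.86% and 8.68% of all features. The 9 matched markers of green shoot tissue summed to 7.27 to 27.9 CPM across WT and 29.8 to 277 in the mutant, with none at 0 in every library. Their median log2 fold change was 3.42 (3.00 on dropping the library labelled WT replicate 3). EdgeR called 0 of them. Before adjustment, 7 were higher and 0 lower with a p under 0.05, beside 7.86% and 8.68% of all features. The 3 matched seed markers did not pass 0.142 CPM in any library. The part of the green tissue markers in the homeobox results was not tested. In such bulk samples, fewer cells of a type and less RNA per cell cannot be told apart.

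No homeobox gene was called as changed between mutant and WT roots by the main test. Of the 48 genes, 33 had enough counts to be tested, and edgeR called 0 of them higher and 0 lower at an adjusted p under 0.05, where it called 1.25% of all tested features (319 of 25531, with 0.325% higher and 0.924% lower). Before adjustment, 4 homeobox genes had a p under 0.05, Oshox20 and Oshox3 on the higher side and Oshox2 and Oshox29 on the lower, against 16.5% of all features (7.86% higher and 8.68% lower). DESeq2 called 2 homeobox genes, both higher, against 8.71% of all features it gave an adjusted p (3.96% higher and 4.75% lower). Limma-voom called 0 against 0.885% (0.247% higher and 0.638% lower), and edgeR without the filter on low counts called 0 of 43 against 0.962% (0.238% higher and 0.724% lower). Log2 fold changes (mutant over WT) ran from -1.09 to 3.21 with a median of -0.06, beside a median of -0.04 over all tested features, and 13 were positive and 20 negative. In 30 of the 33 genes the estimate was smaller than 1 in size, as in 82.1% of all features. In 11 of the 33 the whole 95% interval lay within 1 log2 unit of zero, against 30.7% of all features. For the other 22, a 2-fold difference in at least one direction lay inside the interval and was not resolved with 3 samples per group.

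**Figure D1:**
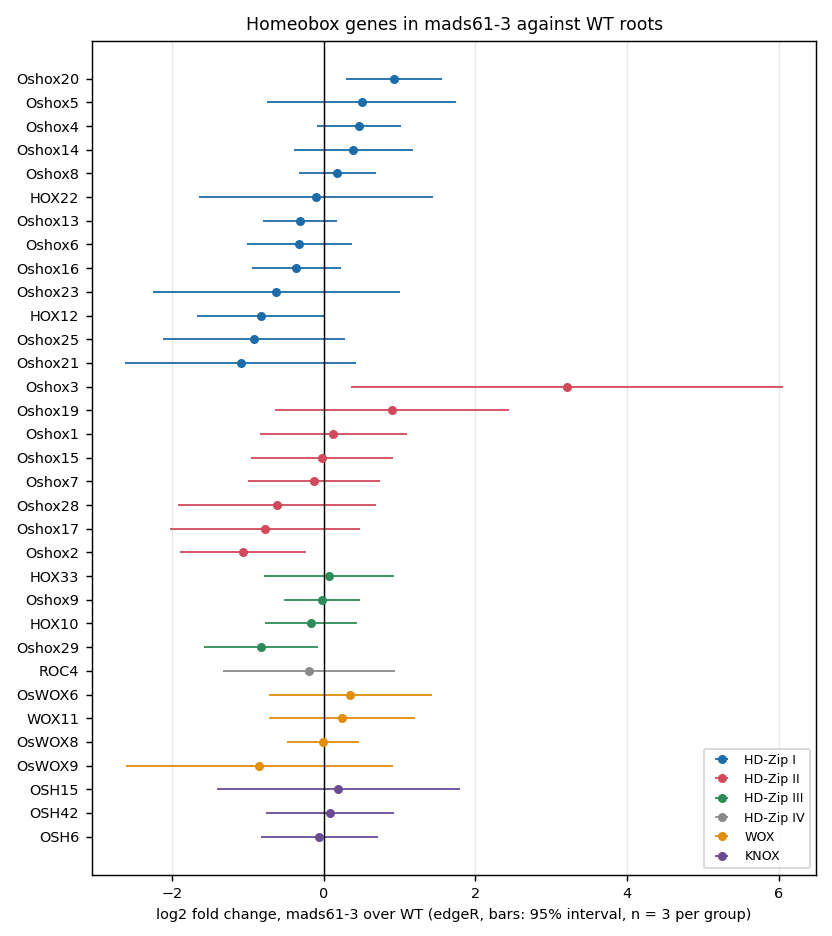
Log2 fold changes (mads61-3 over WT) of the 33 tested homeobox genes from edgeR, with bars for the 95% interval (n = 3 per group), grouped and coloured by family. Of the 33 intervals, those of Oshox20 and Oshox3 lie above zero and those of Oshox2 and Oshox29 below it, and none of these genes passed adjustment over all features.

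The family spanned a wide range of levels in these roots. Oshox5 stood first, at 200.04, 101.3 and 84.0 FPKM in WT and 215, 114 and 265 in mads61-3. OSH42, a KNOX gene, followed at 110.2, 80.3 and 50.4 FPKM in WT and 101.5, 93.2 and 84.8 in mads61-3. Oshox5 was above OSH42 in all 6 libraries when compared library by library, although their ranges overlapped. Oshox16 came next among homeobox genes with 72.4 ± 11.2 FPKM in WT and 58.8 ± 3.90 in the mutant (mean ± SD, n = 3 per group). Below it a gap opened: every library had Oshox16 above the highest value of HOX10, which had 33.9 ± 6.73 and 33.2 ± 3.90 FPKM. From HOX10 down to ROC4, each neighbour in the order overlapped with the next, so the order of neighbours is not resolved. Genes far apart in the order, such as HOX10 and ROC4 themselves, did not overlap.

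At the other end, 5 homeobox genes had 0 counts in every library: WOX1, OsWOX2, WOX3, OsWOX10 and OsH10. A count of 0 allows up to 3 counts per library, which stood for 0.0875 to 0.131 CPM. A further 10 genes had too few counts for the test. Among them OSH1, the rice KNOX gene known from the shoot apical meristem, had 4 counts in mutant replicate 1 and 0 in the other libraries. Its neighbour by locus number OSH3 had 8 counts in all, and OsH43 and WOX4 had 14 each. OSH1 and OSH3 were thus near or at the limit of detection in both groups. OSH15, a KNOX gene known for internode growth, was the least abundant tested homeobox gene, at 0.330 ± 0.195 FPKM in WT and 0.417 ± 0.0995 in mads61-3.

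**Figure D2:**
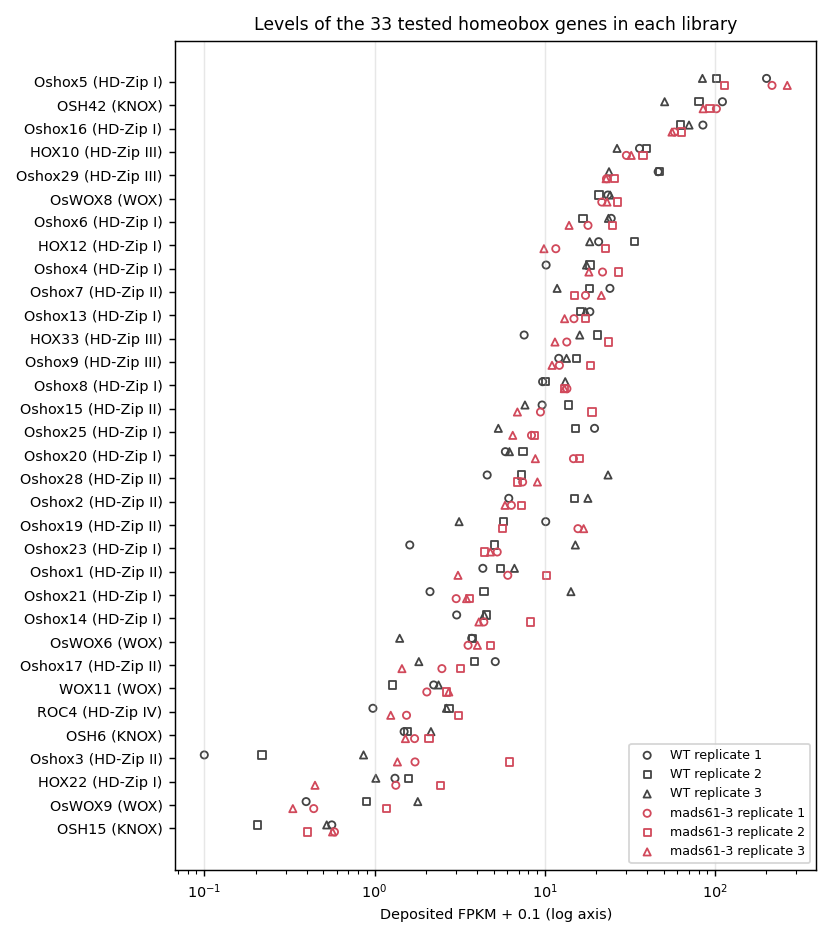
Deposited FPKM plus 0.1 (log axis) of the 33 tested homeobox genes in each of the 6 libraries, ordered by mean level, with WT in grey and mads61-3 in red and a symbol for each replicate. Oshox5, OSH42 and Oshox16 lie to the right of all others, and OSH15 has the lowest mean.

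HD-Zip class I held 13 tested genes, 5 with positive and 8 with negative log2 fold changes and a median of -0.31. With the library labelled WT replicate 3 left out the median was -0.04. Oshox20 (Os08g0481400, chromosome 8) was the tested class I gene whose groups were apart in both units, at 10.2, 10.6 and 8.97 CPM across WT and 21.8, 21.5 and 13.5 in mads61-3. Every mutant library lay above every WT library, in CPM and in FPKM. Its log2 fold change was 0.93 (SE 0.27, 95% interval 0.30 to 1.56) and did not pass edgeR (adjusted p = 0.148). DESeq2 called it (log2 0.94, adjusted p = 0.0233), and edgeR, with the library labelled WT replicate 3 dropped, gave 0.86 (adjusted p = 0.183). Over all alternatives its adjusted p ran from 0.0233 to 0.461.

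Oshox4 (Os09g0470500, chromosome 9) had 18.5, 27.4 and 26.7 CPM across WT and 33.6, 37.8 and 29.04 in mads61-3. The groups did not overlap in CPM but did in FPKM, and the log2 fold change of 0.47 (SE 0.23) missed the threshold (edgeR, adjusted p = 0.377). Oshox13 (Os03g0188900, chromosome 3), with 30.1 ± 5.22 CPM across WT and 24.3 ± 1.73 in the mutant, was the tested class I gene whose mutant libraries all lay below WT in CPM, by a narrow margin that did not hold in FPKM (log2 -0.31, edgeR, adjusted p = 0.516). In all, the groups did not overlap in CPM in 5 of the 33 homeobox genes, 3 with the mutant above and 2 below, where 22.7% of all tested features did not overlap (11.4% above and 11.3% below). Without the library labelled WT replicate 3 this was so in 10 of the 33, against 37.2%. In FPKM they did not overlap in 2, Oshox20 and Oshox3, against 24.8% of all features.

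HOX12 (Os03g0198600, chromosome 3) is known in rice for panicle exsertion, through the gibberellin-deactivating enzyme gene EUI1. It had 30.1, 40.1 and 22.2 CPM across WT and 14.2, 25.3 and 12.6 in mads61-3. Mutant replicate 2 lay above the library labelled WT replicate 3, so the groups overlapped, and the log2 fold change of -0.83 (SE 0.35) missed the threshold (edgeR, adjusted p = 0.307; -1.02 and 0.190 without that WT library). EUI1 itself had 2.10, 1.74 and 0.783 CPM across WT and 5.45, 1.78 and 4.66 in mads61-3 (log2 1.36, SE 0.57, edgeR, adjusted p = 0.298). The groups overlapped for EUI1 as well.

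The most abundant class I genes did not separate the groups. Oshox5 (Os08g0416000, chromosome 8) had 464, 191 and 162 CPM across WT and 419, 201 and 535 in mads61-3 (log2 0.50, SE 0.53, edgeR, adjusted p = 0.696). WT replicate 1 stood with mutant replicates 1 and 3 on the high side, and the other libraries of both groups stood together on the low side. Without WT replicate 1 the estimate for Oshox5 was 1.13 (edgeR, adjusted p = 0.154). Oshox16 (Os02g0729700, chromosome 2) had 166, 97.0 and 114 CPM across WT and 98.5, 95.8 and 99.97 in mads61-3 (log2 -0.36, SE 0.25, edgeR, adjusted p = 0.531). Here the mutant libraries were close together and WT replicate 1 stood high. Oshox8 had 15.5 ± 2.19 and 17.6 ± 1.29 CPM (log2 0.18, edgeR, adjusted p = 0.735) and Oshox14 had 4.80 ± 0.555 and 6.31 ± 2.17 (log2 0.39, edgeR, adjusted p = 0.619), with overlapping groups.

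Among tested class I genes, 3 had fold changes that moved furthest, in log2 units, on dropping the library labelled WT replicate 3. Oshox25 (Os09g0379600, chromosome 9) had 31.1, 19.7 and 6.97 CPM across WT and 11.1, 10.5 and 8.96 in mads61-3. WT replicates 1 and 2 were above all mutant libraries and the library labelled WT replicate 3 was below them. Its log2 fold change went from -0.92 (edgeR, adjusted p = 0.426) to -1.32 (adjusted p = 0.0668) when that library was left out. Oshox21 (Os03g0170600, chromosome 3) had 2.06, 3.52 and 11.8 CPM across WT and 2.48, 2.71 and 2.97 in mads61-3. The log2 fold change of Oshox21 went from -1.09 (edgeR, adjusted p = 0.457), the lowest of all homeobox genes, to -0.04 (adjusted p = 0.976). Oshox23 (Os10g0404900, chromosome 10) had 3.06, 8.20 and 25.2 CPM across WT and 8.75, 6.67 and 8.30 in the mutant, and went from -0.62 (adjusted p = 0.713) to 0.49 (adjusted p = 0.647). In both, the mutants lay between the WT libraries.

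The class I genes HOX22 and HOX24 are known from responses to dehydration and abscisic acid. HOX22 had 1.49, 1.66 and 1.07 CPM across WT and 1.31, 2.24 and 0.367 in mads61-3 (log2 -0.10, edgeR, adjusted p = 0.957; -0.73 and 0.659 without mutant replicate 2), and HOX24, with 15 counts in all 6 libraries together, was not tested. The HOX24 counts were 2, 7 and 4 in WT and 0, 2 and 0 in mads61-3. Oshox6, known from the same responses, had 28.3 ± 8.03 and 22.7 ± 5.07 CPM (log2 -0.32, edgeR, adjusted p = 0.649). The list of other dehydration response genes had 15 of 24 names matched and 12 genes tested, of which edgeR called 0. With a p under 0.05 before adjustment, 1 was higher and 3 were lower, beside 7.86% and 8.68% of all features, and DESeq2 called 1 higher and 2 lower, beside 3.96% and 4.75%. Limma-voom called 0 of the list. Its most abundant members were OsASR5 and LIP9. OsASR5 had 64.2, 135 and 644 CPM across WT and 493, 370.3 and 401 in mads61-3. Its log2 fold change was 0.58 with all libraries (edgeR, adjusted p = 0.767) and 2.08 once the library labelled WT replicate 3, the highest of the 6, was dropped (adjusted p = 0.0555). LIP9 had 188 ± 80.4 and 250.2 ± 105 CPM (log2 0.41, edgeR, adjusted p = 0.699). The genes that DESeq2 called, named after their values were seen, were the transcription factor gene BZIP46 on the higher side and OsLEA3-1 and OSNCED3, an abscisic acid synthesis gene, on the lower. EdgeR gave BZIP46 a log2 fold change of 2.46 (adjusted p = 0.190), and called it once the library labelled WT replicate 3 was dropped (log2 3.85, adjusted p = 0.0255). OsLEA3-1 had -2.36 (edgeR, adjusted p = 0.0702; -2.01 and 0.104 without that library) and OSNCED3 -3.87 (edgeR, adjusted p = 0.189; -4.05 and 0.179). OSNCED3 had 20.9, 0.317 and 6.94 CPM across WT and 0.700, 0.726 and 0.477 in mads61-3, so its groups overlapped. Without WT replicate 1 its estimate was -2.51 (edgeR, adjusted p = 0.182).

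HD-Zip class II held 8 tested genes, 3 with positive and 5 with negative log2 fold changes. Their median was -0.07 (0.03 without the library labelled WT replicate 3). Oshox3 (Os01g0643600, chromosome 1) had the largest fold change of the 33 genes, on low counts. WT libraries held 0, 4 and 26 of its reads and mads61-3 libraries 69, 205 and 44, or 0, 0.158 and 0.925 CPM against 2.01, 6.77 and 1.62. Every mutant library lay above every WT library in CPM and FPKM, and mutant replicate 2 stood far above the other mutants. The log2 fold change was 3.21 (SE 1.20, 95% interval 0.36 to 6.06) and did not pass (edgeR, adjusted p = 0.249; DESeq2, adjusted p = 0.0558). On dropping the library labelled WT replicate 3 this became 5.33 (edgeR, adjusted p = 0.0867), on 4 WT counts, and without mutant replicate 2 it was 2.29 (edgeR, adjusted p = 0.479).

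Oshox2 (Os06g0140700, chromosome 6) lay lower in the mutant, at 10.55, 21.1 and 25.8 CPM across WT and 9.21, 9.61 and 8.81 in mads61-3. The mutant libraries were close together, and WT replicate 1 was just above them in CPM and within their range in FPKM. The log2 fold change was -1.06 (SE 0.35, 95% interval -1.89 to -0.23; edgeR, adjusted p = 0.201; DESeq2, adjusted p = 0.0781). Without WT replicate 1 edgeR called it (log2 -1.35, adjusted p = 0.0352, where 2.51% of all features were called, 1.65% as lower), and on dropping the library labelled WT replicate 3 it did not (log2 -0.78, adjusted p = 0.277). Oshox28 (Os06g0140400), close to Oshox2 by locus number, is known with Oshox1 for setting tiller angle in rice. It had 6.44, 8.48 and 26.9 CPM across WT and 8.75, 7.69 and 10.98 in mads61-3. Its log2 fold change turned from -0.61 (edgeR, adjusted p = 0.644) to 0.29 (adjusted p = 0.677) on dropping the library labelled WT replicate 3, which alone was high. Oshox1 had 7.70 ± 1.08 and 8.42 ± 4.18 CPM (log2 0.13, edgeR, adjusted p = 0.911).

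Of the other class II genes, Oshox19 (Os03g0231000, chromosome 3) had 5.38, 2.50 and 1.35 CPM across WT and 6.997, 2.28 and 7.89 in mads61-3 (log2 0.90, SE 0.65, edgeR, adjusted p = 0.552). As for Oshox5, WT replicate 1 and mutant replicates 1 and 3 were the high libraries, and without WT replicate 1 the estimate was 1.58 (edgeR, adjusted p = 0.167). Oshox17 (Os04g0548700, chromosome 4) had 6.79, 4.16 and 1.96 CPM across WT and 2.71, 3.20 and 1.62 in mads61-3 (log2 -0.77, SE 0.53, edgeR, adjusted p = 0.523; -1.12 and 0.233 on dropping the library labelled WT replicate 3). The most abundant class II genes by FPKM were Oshox7, with 27.6 ± 12.3 CPM across WT and 25.3 ± 6.37 in mads61-3 (log2 -0.13, edgeR, adjusted p = 0.902), and Oshox15, with 10.1 ± 2.56 and 9.92 ± 4.64 (log2 -0.02, edgeR, adjusted p = 0.984). Oshox11, Oshox18, Oshox26 and Oshox27 had between 3 and 50 counts in all libraries together and were not tested.

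**Figure D3:**
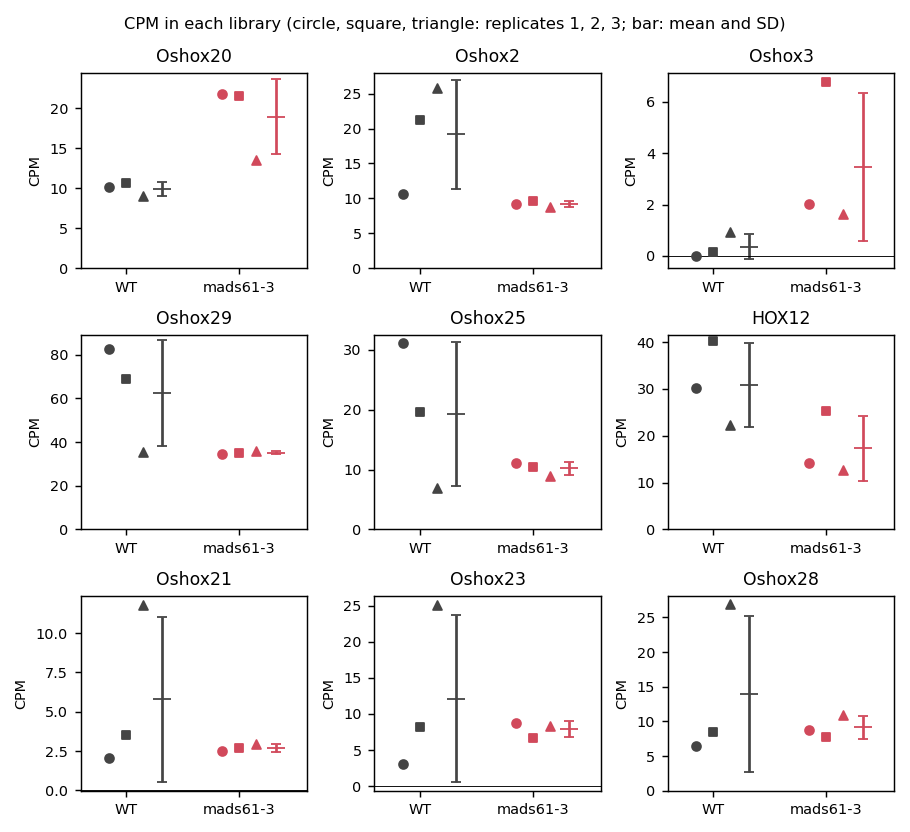
CPM in each library of 9 HD-Zip genes, with WT in grey and mads61-3 in red, circles, squares and triangles for replicates 1, 2 and 3, and a bar for the mean and SD (n = 3). In Oshox20, Oshox2 and Oshox3 the groups do not overlap, in Oshox29 and Oshox25 the WT replicate 3 triangle lies with or below the mutants, and in Oshox21, Oshox23 and Oshox28 it lies far above all other libraries.

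HD-Zip class III gave the 1 homeobox call that edgeR made without the library labelled WT replicate 3. Oshox29 (Os01g0200300, chromosome 1) had 82.6, 69.03 and 35.4 CPM across WT and 34.6, 35.1 and 35.9 in mads61-3. In FPKM these were 46.1, 47.2 and 23.7 against 22.9, 25.6 and 22.8. WT replicates 1 and 2 were about alike and above all mutants, while the library labelled WT replicate 3 stood within the mutant range. With all libraries the log2 fold change was -0.83 (SE 0.32, 95% interval -1.58 to -0.07) and did not pass (edgeR, adjusted p = 0.264). Without that library it was -1.11 (95% interval -1.54 to -0.68) and Oshox29 was called lower (edgeR, adjusted p = 0.0366), where edgeR called 2.76% of all features, 2.02% as lower. Over all alternatives the adjusted p ran from 0.0366 to 0.60.

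The other 3 class III genes had log2 fold changes near zero. HOX10 (Os03g0109400, chromosome 3) had 144, 99.3 and 82.1 CPM across WT and 90.1, 107 and 93.5 in mads61-3 (log2 -0.17, 95% interval -0.78 to 0.44; edgeR, adjusted p = 0.805). Oshox9 (Os10g0480200, chromosome 10) had 40.6 ± 2.02 and 40.1 ± 8.41 CPM (log2 -0.02, 95% interval -0.52 to 0.48; edgeR, adjusted p = 0.976). HOX33 (Os12g0612700, chromosome 12) had 29.3, 65.2 and 52.2 CPM across WT and 44.3, 70.8 and 39.2 in mads61-3 (log2 0.07, 95% interval -0.78 to 0.93; edgeR, adjusted p = 0.945). All 3 intervals lay within a 2-fold change either way. ROC4 (Os04g0569100, chromosome 4), the class IV gene, had 3.41, 8.36 and 8.22 CPM across WT and 4.72, 8.91 and 3.89 in mads61-3 (log2 -0.19, SE 0.48, edgeR, adjusted p = 0.885), with the groups overlapping throughout.

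Of the 9 WOX genes 4 were tested, 2 with positive and 2 with negative log2 fold changes. Their median was 0.12 (-0.003 without the library labelled WT replicate 3). OsWOX8 (Os01g0818400, chromosome 1) was by far the most abundant, at 23.3, 20.7 and 24.04 FPKM in WT and 21.5, 26.7 and 23.1 in mads61-3. It was also the homeobox gene with the narrowest interval (log2 -0.01, SE 0.20, 95% interval -0.48 to 0.46; edgeR, adjusted p = 0.985). WOX11 (Os07g0684900, chromosome 7), the crown root regulator, had 3.41, 1.54 and 3.06 CPM across WT and 2.62, 3.14 and 3.74 in mads61-3. Its groups overlapped (log2 0.24, SE 0.41, edgeR, adjusted p = 0.818), and its interval of -0.72 to 1.20 left a 2-fold rise unresolved.

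OsWOX6 (Os03g0325600, chromosome 3) had 7.22, 6.02 and 2.21 CPM across WT and 5.74, 7.13 and 6.79 in the mutant, with the library labelled WT replicate 3 below all others. Its log2 fold change went from 0.35 (SE 0.45, edgeR, adjusted p = 0.759) to -0.01 (adjusted p = 0.988) without it. OsWOX9 (Os01g0854500, chromosome 1), the locus of the quiescent-centre gene QHB, had 11, 25 and 59 counts in WT and 15, 37 and 9 in mads61-3 (log2 -0.84, SE 0.74, edgeR, adjusted p = 0.635; -0.15 and 0.949 without that library). At these counts its interval ran from -2.61 to 0.92, and without mutant replicate 2 the estimate was -1.62 (adjusted p = 0.417).

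On the list of crown root and WOX-linked genes, 18 of 23 names were matched and 16 genes tested, and edgeR called 0. With a p under 0.05 before adjustment, 1 was higher and 4 were lower, beside 7.86% and 8.68% of all features. DESeq2 called 1 higher and 2 lower, beside 3.96% and 4.75%, and limma-voom called 0, beside 0.885%. The median log2 fold change was -0.33 (-0.13 without the library labelled WT replicate 3). The cytokinin response regulator OSRR2, which WOX11 is known to repress in rice, had 60.7 ± 14.8 CPM across WT and 36.2 ± 4.83 in mads61-3 (log2 -0.75, SE 0.24, edgeR, adjusted p = 0.196). ERF3, a partner of WOX11 in crown root growth, had 34.3, 63.9 and 27.7 CPM across WT and 10.8, 16.3 and 12.9 in the mutant, with no overlap. It did not pass with all libraries (log2 -1.65, SE 0.36, edgeR, adjusted p = 0.0843) and did without the library labelled WT replicate 3 (log2 -1.88, adjusted p = 0.0461). The gene deposited as CRL4 (Os12g0454800, chromosome 12), matched by its symbol alone, lay on the other side. It had 21.3, 12.99 and 15.8 CPM across WT and 65.9, 40.05 and 43.1 in mads61-3, again with no overlap. OsGNOM1 (Os03g0666100, chromosome 3), a separate locus on the list, had a log2 fold change of 0.06 (edgeR, adjusted p = 0.930; 0.25 and 0.634 without that library). EdgeR did not call CRL4 (log2 1.57, SE 0.29, adjusted p = 0.0606; 1.53 and 0.0778 without that library), while DESeq2, both FPKM fits and edgeR without WT replicate 1 did. OsIAA23, also called by DESeq2, had a log2 fold change of -1.12 (edgeR, adjusted p = 0.0756). OSRR2, ERF3, CRL4 and OsIAA23 were named here after their values were seen. The list's most abundant members were OsIAA13, an auxin response repressor gene, and RR4. OsIAA13 had 74.9, 198 and 421 CPM across WT and 122, 98.98 and 148 in mads61-3, and its log2 fold change of -0.91 (edgeR, adjusted p = 0.49) became -0.15 (adjusted p = 0.901) on dropping the library labelled WT replicate 3. RR4 had 90.4 ± 15.1 and 90.9 ± 12.8 CPM (log2 0.01, edgeR, adjusted p = 0.99; -0.07 and 0.913 without that library).

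Of the 7 KNOX genes 3 were tested. OSH42 (Os08g0292900, chromosome 8) had 154, 91.9 and 58.8 CPM across WT and 120.0, 99.9 and 104 in mads61-3 (log2 0.09, SE 0.36, edgeR, adjusted p = 0.931), with the mutants inside the WT range. OSH6 (Os01g0302500, chromosome 1) had 2.67, 2.30 and 3.27 CPM across WT and 2.62, 2.91 and 2.39 in mads61-3 (log2 -0.06, 95% interval -0.83 to 0.71; edgeR, adjusted p = 0.952). OSH15 (Os07g0129700, chromosome 7) had 20, 4 and 19 counts in WT and 26, 13 and 21 in mads61-3 (log2 0.20, SE 0.68, edgeR, adjusted p = 0.92). In all 3 the groups overlapped.

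BEL1 (Os06g0108900, chromosome 6) was the homeobox gene with reads in every mutant library and none in WT. It had 40, 15 and 7 counts in mutant replicates 1 to 3 and 0 in every library labelled WT, so the library labelled WT replicate 3 stood with the other WT libraries here. The mutant mean of 0.639 CPM was at least 5.38-fold higher than the mean of 0.119 CPM that 3 counts per library would give in WT. The filter on low counts kept it out of the main test. Without the filter edgeR did not call it (adjusted p = 0.112), while DESeq2 did (adjusted p = 0.00334), and over all alternatives that tested it the adjusted p ran from 0.00334 to 0.252. It was singled out after its values were seen. Of other homeobox genes outside the name rule, 3 of 16 names were matched: HAZ1, at 58.7 ± 11.7 CPM across WT and 68.7 ± 2.31 in mads61-3 (log2 0.23, adjusted p = 0.647), the BELL gene qSH1 of seed shattering, at 10.7 ± 3.71 and 11.4 ± 1.85 (log2 0.09, adjusted p = 0.923), and DWT1, with 0 counts in every library.

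Among the cytokinin and gibberellin enzymes linked to KNOX proteins, 32 of 44 names were matched and 23 genes tested, and edgeR called 0 higher and 1 lower, beside 0.325% and 0.924% of all features. This was GA2OX3 (Os01g0757200, chromosome 1), a gibberellin 2-oxidase that inactivates gibberellins, at 70.4, 54.6 and 42.8 CPM across WT and 8.78, 8.29 and 5.65 in mads61-3. The groups were far apart, with a log2 fold change of -2.88 (SE 0.29, edgeR, adjusted p = 0.0148; -3.04 and 0.0122 on dropping the library labelled WT replicate 3) and no overlap. Leaving out any 1 mutant library gave log2 fold changes of -2.95, -2.95 and -2.71 (edgeR, adjusted p = 0.106, 0.0545 and 0.107), in fits that called 0, 14 and 0 of all features. Before adjustment, 4 members were higher and 4 lower with a p under 0.05, beside 7.86% and 8.68% of all features, and the list's median was 0.04 (-0.20 without the library labelled WT replicate 3). DESeq2 called 2 higher and 4 lower, beside 3.96% and 4.75%: the cytokinin-activating enzyme genes LOGL4 and LOGL5 on the higher side, and LOGL8, LOGL9, OsGA2ox9 and GA2OX3 on the lower. LOGL4 had 0, 0 and 14 counts across WT and 66, 72 and 74 in mads61-3, and edgeR called it once the library labelled WT replicate 3 was dropped (adjusted p = 0.0195; 0.197 with all libraries). LOGL5 had a log2 fold change of 1.39 (edgeR, adjusted p = 0.186) and was called without WT replicate 1 (1.94, adjusted p = 0.0496). LOGL8 went from -2.81 (edgeR, adjusted p = 0.191) to -1.41 (0.325) and OsGA2ox9 from -3.48 (0.197) to -1.64 (0.360) on dropping the library labelled WT replicate 3. LOGL9 had -3.81 (edgeR, adjusted p = 0.186) and 14.4 CPM in WT replicate 1 against 0.554 and 1.601 in the other WT libraries. Apart from GA2OX3, these genes were named after their values were seen.

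The spread of the homeobox genes was wider among the WT libraries than among the mutants. The median ratio of the highest to the lowest library of a group was 2.22 in WT and 1.49 in the mutant, beside 1.98 and 1.43 over all tested features. The library labelled WT replicate 3 stood at least 1 log2 unit of CPM away from every other library in 4 homeobox genes, high in Oshox21, Oshox23 and Oshox28 and low in OsWOX6, against 3.41% of all features. WT replicate 1 did so in 1, Oshox23, where it was low, against 5.13%, and mutant replicate 2 in 1, Oshox3, against 0.454%. The other libraries did so in 0 homeobox genes, against 0.631% for WT replicate 2, 0.372% for mutant replicate 1 and 0.325% for mutant replicate 3. For 23 of the 33 homeobox genes (69.7%) the library labelled WT replicate 3 lay nearer to the mean of the mutants than to that of the other WT libraries, against 49.8% of all features. For both WT replicate 1 and WT replicate 2 this was so in 19 genes (57.6%), against 58.1% and 33.5% of all features. Mutant libraries lay nearer to the WT mean than to the other mutants in 8 (24.2%), 19 (57.6%) and 14 (42.4%) of the genes for replicates 1, 2 and 3, against 26.8%, 48.0% and 30.2% of all features. The root marker RCc3 differed between WT libraries as well, with 28.5, 216 and 940.3 CPM, and had 68.5, 77.0 and 56.0 in mads61-3. Its part in the homeobox values was not tested.

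Leaving out the library labelled WT replicate 3 turned the sign of 6 of the homeobox log2 fold changes, those of Oshox23, Oshox28, OsWOX6, OsWOX8, OSH6 and OSH42. The last 3 became 0.01, 0.09 and -0.19. With it left out, 7 of 35 tested homeobox genes had an unadjusted p under 0.05, against 19.4% of all features (9.24% higher and 10.2% lower), and the median log2 fold change of the 33 genes was -0.01.

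**Figure D4:**
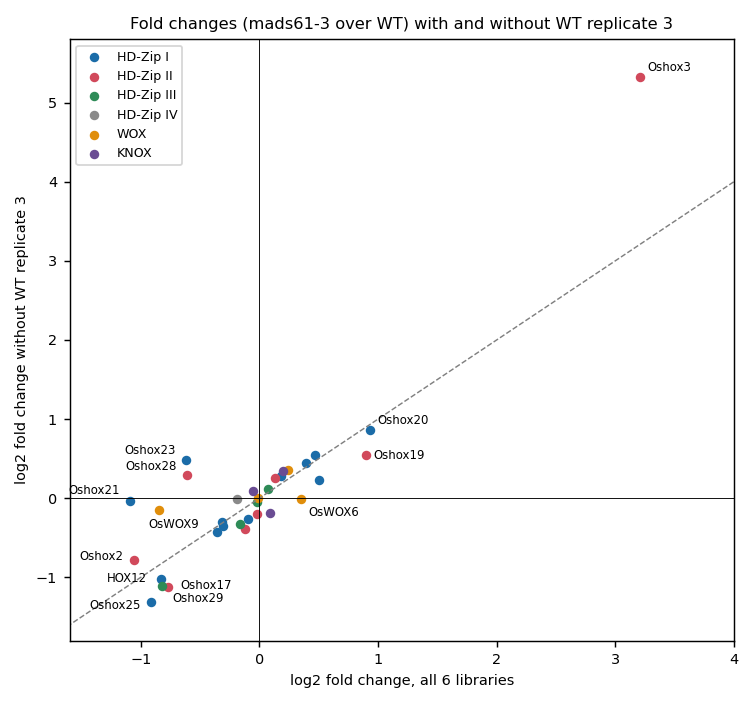
Log2 fold changes (mads61-3 over WT) of the 33 tested homeobox genes with all 6 libraries (horizontal) and without the library labelled WT replicate 3 (vertical), coloured by family, with the dashed line marking equal values. Oshox25, Oshox29, HOX12 and Oshox17 move down from the line, Oshox21, Oshox23 and Oshox28 move up to about zero or above, and Oshox3 goes from 3.21 to 5.33.

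The 3 genes with look-alike names were tested too, and none was called. Osh36 (Os05g0475400, chromosome 5) had 33.2, 82.9 and 195.5 CPM across WT and 188, 110.2 and 106 in mads61-3 (log2 0.38, edgeR, adjusted p = 0.811). The library labelled WT replicate 3 was the highest of the 6, and without it the log2 fold change was 1.22 (adjusted p = 0.234). Osh69 (Os08g0495800, chromosome 8) had 15.3 ± 4.01 CPM across WT and 9.91 ± 0.797 in mads61-3 (log2 -0.63, edgeR, adjusted p = 0.31). The gene bel (Os03g0760200, chromosome 3) had 2.89, 2.85 and 11.9 CPM across WT and 1.90, 1.68 and 1.62 in mads61-3. All mutant libraries of bel lay below WT, but its log2 fold change of -1.76 (edgeR, adjusted p = 0.232) became -0.73 (adjusted p = 0.335) on dropping the library labelled WT replicate 3.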

How the data were processed

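Root RNA was sequenced from 3 WT and 3 mads61-3 samples, with libraries made by an mRNA library kit per the labels' protocols. The deposited table of read counts holds raw whole-number counts, and the deposited FPKM table holds values the authors scaled to length and depth. The submitters' processing notes name the aligner HISAT2 2.0.5, the assembler StringTie 1.3.3 and SAMtools 0.1.18, besides CASAVA 1.8.2 and FastQC 0.11.9, and the human build GRCh38, although the loci are rice loci. For rice, the build, the counting tool and whether it used strand were not given in the sources used here. No coordinates are printed, and reads of overlapping genes or near-identical copies cannot be told apart. Chromosomes come from the locus identifiers. Of the 51 loci 0 were found in the RefSeq gene table given, so no sequences are shown. All 12 value columns were used, and the columns named mads61 with a number were read as replicates of mads61-3.

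The main test was edgeR 4.0.16 (R 4.3.3): quasi-likelihood F-test, two-sided, TMM scaling, robust dispersions, filterByExpr (at least 10 counts, 15 in total), a design of group alone, and p-values adjusted by Benjamini-Hochberg over 25531 features, called under 0.05. Standard errors were taken as the log2 estimate over the root of its F statistic, and 95% intervals use the test's degrees of freedom. Adjusted p-values are from this test unless another tool is named. Alternatives were median-of-ratios scaling, DESeq2 1.42.0, limma-voom (limma 3.58.1), no filter, limma on log2(FPKM + 1) and log2(FPKM + 0.1), a replicate block, and leaving out each library. In simulated counts over 25064 genes, 54 of 100 genes changed by 4-fold and 92 of 100 changed by 16-fold were called, with 9 false calls. The changed genes were drawn only from those above a floor of mean CPM, and Oshox3, HOX22, OsWOX9 and OSH15 lay below it. Counts were drawn independently, so a shift shared by the genes of a library was not simulated.

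The members and lists were chosen with earlier results of these data known. Named were OsMADS61, called members, in each family the 4 largest fold changes and the 2 highest FPKM, members at an unadjusted p under 0.05, and from each list up to 4 called genes or the 2 most abundant. Other members are named to account for all. The rule's families counted Osh36 and Osh69 as KNOX and bel as BELL, and they are set apart here. Library distances used log2(CPM + 0.5). Floors of 3 counts cover counting error only.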

Additional observations from a re-analysis of the deposited data

How the results depend on the processing

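The count of 0 homeobox genes called by edgeR stayed at 0 with median-of-ratios scaling, limma-voom, no filter, both FPKM fits and the replicate block. DESeq2 called 2 (BEL1 and Oshox20), and leaving out 1 library gave 0 to 1 (Oshox2 without WT replicate 1, Oshox29 without the library labelled WT replicate 3). Over all genes 319 were called. DESeq2 called 2481, limma on FPKM 481 with a pseudocount of 1 and 559 with 0.1, and leaving out 1 library gave 0 to 724, with 2641 and 2608 genes at an unadjusted p under 0.05 in the fits without mutant replicate 1 or 3 that called 0. Of the hormone enzyme list 1 was called, against 6 in DESeq2, 2 in limma on FPKM with a pseudocount of 1 and 0 to 2 when 1 library was left out. Of the crown root list 0 were called, against 3 in DESeq2, 1 in each FPKM fit and 0 to 1 when 1 library was left out, and of the dehydration list 0, against 3 in DESeq2 and 0 to 1. Of the 26 named genes 14 kept their sign under all 13 alternatives, and none of the others was called with the opposite sign. With the replicate number as a block, 81 genes were called over all features, 0 of them homeobox genes. Samples with the same number deviated together in 2 of 3 pairs (r = 0.112 and 0.193, against -0.177), so the numbers were not taken to pair the samples, and not every sample correlated best with its own number. The causes of these differences were not tested. With 3 libraries per group, 22 of 33 intervals reached past a 2-fold change.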
